A study of Homo sapiens with 9 samples.

Results

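The genes described here are 35 genes of the ATF4 stress response and of amino acid supply, named in a fixed list and matched by symbol to the Ensembl identifiers of the files. All 35 were among the 36753 identifiers with deposited values, and all 35 passed the filter on low values that left 16135 genes for testing. The list was chosen by function and not by measured values, although earlier results of these data were known when it was drawn up. RNA was sequenced from PANC-1, a single established line from a human pancreatic carcinoma, 48 hours after transfection of short interfering RNAs (siRNAs). The groups were siSIRT6 (3 libraries), in which the siRNA targets the histone deacylase gene SIRT6, siKDM5C (3 libraries), in which it targets the histone H3 lysine 4 demethylase gene KDM5C, and control (3 libraries), whose column headers read siNC. All 9 libraries came from the same cell line at the same time after transfection, and the labels name no other treatment.

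ATF4 is a transcription factor of the integrated stress response. In this response kinases that sense endoplasmic reticulum stress, amino acid shortage, viral RNA or lack of haem phosphorylate the alpha subunit of the initiation factor eIF2, which lowers general translation while the ATF4 mRNA is translated more efficiently. ATF4 then binds DNA with partners of the C/EBP family and switches on genes for amino acid synthesis, amino acid uptake and tRNA charging, together with feedback inhibitors and, under long stress, genes of cell death. Because ATF4 is controlled largely at translation, its mRNA level does not report its activity. Pancreatic carcinoma cells are known to depend on amino acid supply from synthesis, transport and scavenging.

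The DNA element that ATF4 and C/EBP proteins share, TGATGNAA, was looked for on both strands of the RefSeq promoter windows (GRCh38.p14, 250 bases before to 50 after the annotated start). Of the 30 genes in the list with a promoter entry, 5 held the element (16.7%), against 1003 of all 27305 promoters (3.67%). The stretches of the 3 genes with a match upstream of the start are shown because ASNS is the textbook case of this element and because the 3 genes had different results here, CHAC1 falling in both knockdowns, ASNS rising after siKDM5C and MTHFD1L passing in no comparison. Each is printed 5′ to 3′ on the strand of its gene, with the element in capitals.
CHAC1 (chr15:40953240-40953291, plus strand): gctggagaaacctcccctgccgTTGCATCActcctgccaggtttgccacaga
ASNS (chr7:97872447-97872498, minus strand): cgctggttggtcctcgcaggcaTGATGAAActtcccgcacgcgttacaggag
MTHFD1L (chr6:150866335-150866386, plus strand): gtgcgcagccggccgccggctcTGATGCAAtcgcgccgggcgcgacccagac
The CHAC1 match lies on the opposite strand and starts at base -209 from the annotated start, the ASNS match at -68 and the MTHFD1L match at -129. These positions count from the RefSeq start. All 3 stretches lie inside the Ensembl gene spans, which begin further upstream. SLC3A2 held a match just downstream of its start, at bases 38 to 45, and so did SLC7A1 at bases 8 to 15. A match is a stretch of letters and not evidence of binding, and the absence of a match says only that these letters are not in the window.

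The deposited values are FPKM, read counts scaled by gene length and by the depth of the library. From their steps the libraries held between 18201413 and 26910441 gene reads each. The fewest reads of a gene in the list in any library were 137 (CTH). SIRT6 was at 0.795, 0.509 and 0.487 FPKM in siSIRT6 replicates 1, 2 and 3, against 6.2, 5.17 and 7.17 FPKM in control replicates 1, 2 and 3. KDM5C was at 3.65, 3.31 and 3.89 FPKM in siKDM5C, against 18, 18.4 and 18.8 FPKM in control. The summed level of 5 epithelial markers (KRT7, KRT8, KRT18, KRT19 and EPCAM) was 1400 to 1510 FPKM in siSIRT6, 695 to 856 FPKM in siKDM5C and 1090 to 1140 FPKM in control libraries, and its part in the results was not tested. These markers did not move together. In siKDM5C libraries KRT7, KRT8 and KRT18 were below all controls. KRT19 overlapped them there (138 to 169 FPKM, against 143 to 150 FPKM), and EPCAM was above them (2.52 to 3.52 FPKM, against 0.841 to 1.15 FPKM). In siSIRT6 libraries KRT7 was below all controls (3.91 to 4.67 FPKM, against 5.65 to 7.13 FPKM), and KRT8, KRT18, KRT19 and EPCAM were above them. All 12 markers of leukocytes, endothelium, fibroblasts, acinar and endocrine cells with deposited values were at 0.381 FPKM or less in every library, and 11 of the 12 were at 0 in at least 1 library. Differences are given as log2 fold changes of FPKM + 1 from limma, with p-values adjusted over all genes tested by the Benjamini-Hochberg method, and "rose" or "fell" is written for an adjusted p under 0.05. The labels do not say whether replicates came from different cultures. The p-values therefore rest on a spread between samples that may be technical. In these bulk samples fewer cells with a transcript and less transcript per cell cannot be told apart.

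The levels of the 35 genes spanned a wide range that the knockdowns did not change in outline. Mean levels ran from 1.47 FPKM (EIF2AK3) to 174 FPKM (SLC7A5) in siSIRT6, from 1.48 FPKM (EIF2AK3) to 193 FPKM (SLC7A5) in siKDM5C, and from 1.45 FPKM (SHMT1) to 153 FPKM (SLC7A5) in control libraries. In control cells the leucine transporter gene SLC7A5, ATF4, the mTORC1 inhibitor gene DDIT4, the glutamine transporter gene SLC38A2 and the serine pathway gene PSAT1 stood at 100 FPKM or more. The median coefficient of variation over the genes was 2.88% in siSIRT6, 8.75% in siKDM5C and 5.54% in control libraries. SESN2 was the most variable gene in each group, at 50%, 25.3% and 30.7% for siSIRT6, siKDM5C and control.

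**Figure D1:**
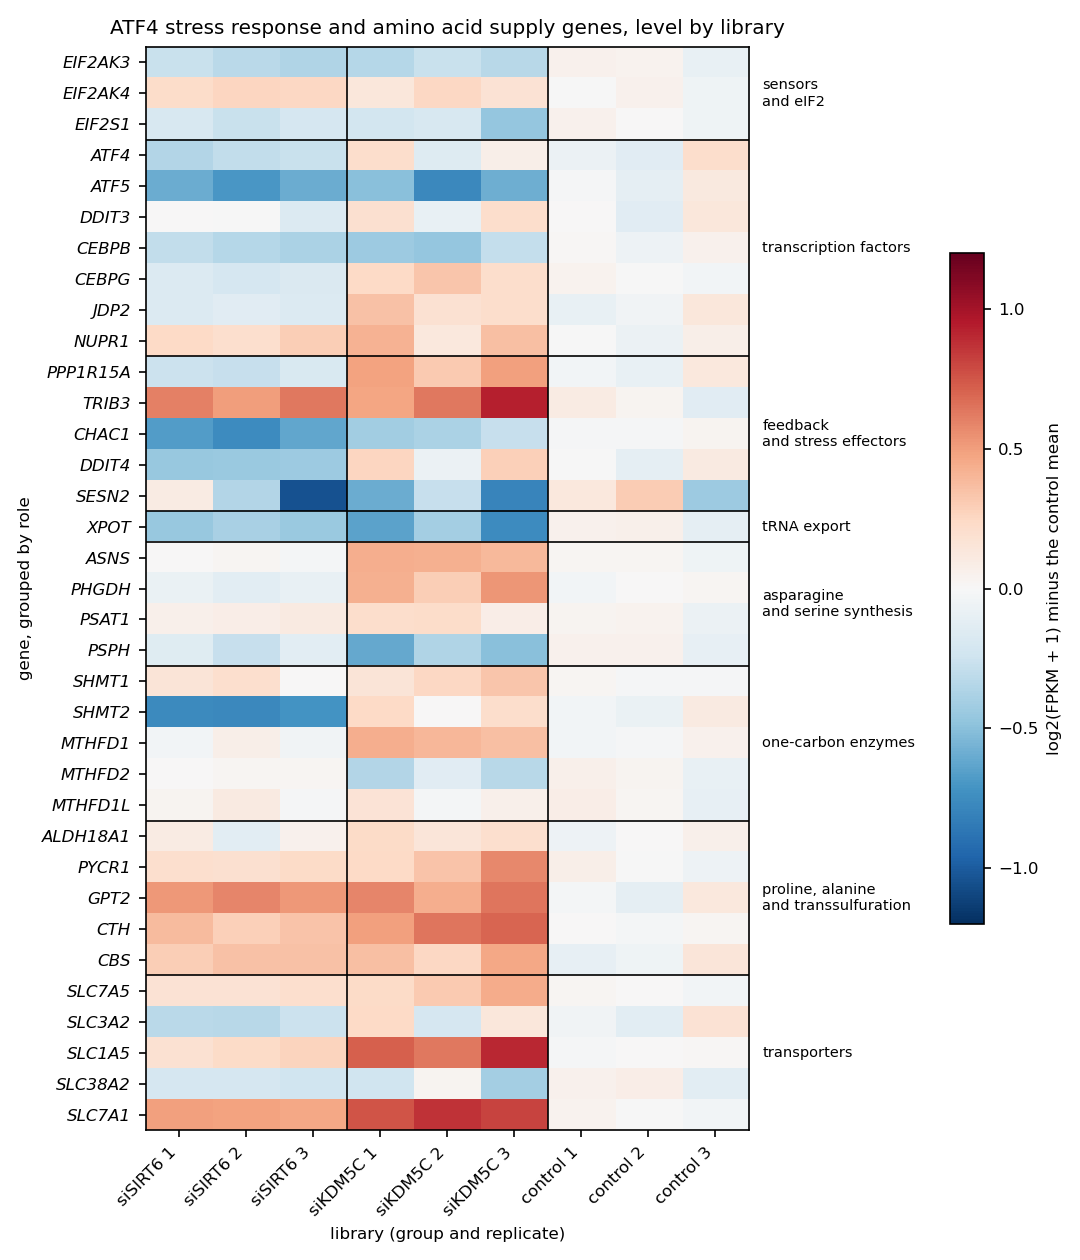
Heat map of log2(FPKM + 1) minus the mean of the 3 control libraries, for 35 genes in rows, grouped by role, and 9 libraries in columns (siSIRT6, siKDM5C, control). TRIB3, GPT2 and SLC7A1 are red in all 6 knockdown libraries, ATF5 and CHAC1 are blue in all 6, and SHMT2 is lowest in the 3 siSIRT6 libraries.

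Lowering SIRT6 was set against control to ask which of these transcripts differ. The serine hydroxymethyltransferase gene SHMT2, the glutathione-degrading enzyme gene CHAC1 and the transcription factor gene ATF5 had the largest falls, and the pseudokinase gene TRIB3, the alanine transaminase gene GPT2 and the arginine transporter gene SLC7A1 the largest rises. Of the 35 genes, 9 rose, 11 fell and 15 did not pass. The 20 calls are 57.1% of the genes, where 50.8% of all genes tested were called (23.9% higher and 26.9% lower), so the share called was close to that of the transcriptome. The median log2 fold change was -0.06, beside -0.045 over all genes tested. All 3 siSIRT6 libraries lay above or below all 3 controls for 27 of the 35 genes, where this held for 65.5% of all genes tested. Median-of-ratios scaling between libraries gave 10 rises and 8 falls among the 35 genes, and without siSIRT6 replicate 2 the number of falls was 7.

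For KDM5C the same question was put to siKDM5C and control libraries. The largest rises were in the transporter genes SLC7A1 and SLC1A5, the pseudokinase gene TRIB3 and the cysteine pathway gene CTH, while ATF5, the tRNA exporter gene XPOT and the serine pathway gene PSPH had the largest falls. Of the 19 genes of synthesis, one-carbon metabolism and transport, 13 rose (68.4%, against 25.6% of all genes tested) and 2 fell, PSPH and MTHFD2. After siSIRT6, 6 of these 19 rose (31.6%, against 23.9% of all genes tested) and 1 fell. This pooling of 19 genes was not among the planned counts. Of the 35 genes, 19 rose, 8 fell and 8 did not pass. The 27 calls are 77.1% of the genes, where 51.5% of all genes tested were called, and the 19 rises are 54.3% of the genes, where 25.6% of all genes tested rose. The 8 falls are 22.9% of the genes, where 25.9% of all genes tested fell. Over the alternatives the rises numbered from 15, without control replicate 1 or 2, to 20, without siKDM5C replicate 2. Without control replicate 1, 3583 of all 16135 genes rose. The median log2 fold change was 0.19, beside -0.019 over all genes tested. All 3 siKDM5C libraries lay above or below all 3 controls for 27 of the 35 genes, where this held for 55.7% of all genes tested. Both knockdown comparisons used the same 3 control libraries, so their values below stand side by side and are not independent of each other.

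**Figure D2:**
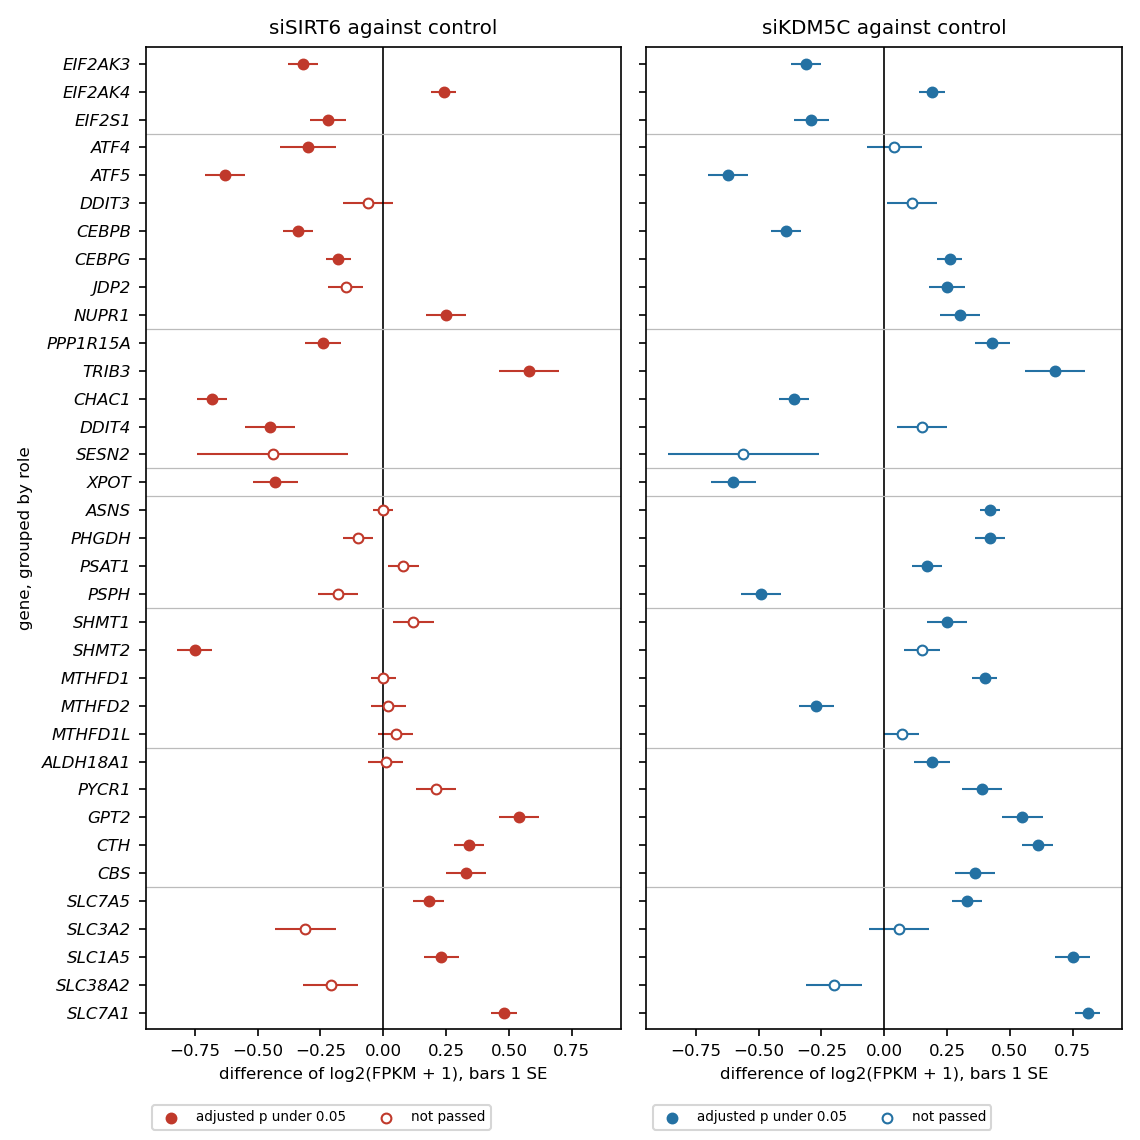
Log2 fold change of FPKM + 1 with 1 SE for each of the 35 genes, siSIRT6 against control on the left and siKDM5C against control on the right, filled where the adjusted p was under 0.05. The 5 genes of proline, alanine and transsulfuration are all filled and to the right of 0 in the siKDM5C panel, and 3 of the 5 are in the siSIRT6 panel.

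Among the sensors, EIF2AK3 encodes PERK, the kinase that reports stress in the endoplasmic reticulum (ENSG00000172071, chromosome 2, 88556741 to 88627576, minus strand, GRCh38 as for all coordinates below). It was at 1.56, 1.46 and 1.4 FPKM in siSIRT6 libraries, 1.44, 1.56 and 1.45 FPKM in siKDM5C libraries and 2.19, 2.18 and 1.9 FPKM in controls. All 6 knockdown libraries lay below all 3 controls, and EIF2AK3 fell after siSIRT6, -0.32 (SE 0.06, adjusted p = 0.00343), and after siKDM5C, -0.31 (SE 0.06, adjusted p = 0.00379). An antisense gene (ENSG00000225420) that shares 781 exon bases with EIF2AK3 averaged 5.71 FPKM in siSIRT6, 5.66 FPKM in siKDM5C and 7.99 FPKM in control libraries. The counted strand is not stated, so the reads of EIF2AK3 and this gene may be mixed. EIF2AK4, which encodes GCN2, the kinase activated by uncharged tRNA (ENSG00000128829, chromosome 15, 39934146 to 40035591, plus strand), was at 6.8, 7 and 6.92 FPKM in siSIRT6 libraries, 6.33, 6.95 and 6.54 FPKM in siKDM5C libraries and 5.68, 5.94 and 5.43 FPKM in controls. Its knockdown libraries were all above the controls, with a rise of 0.24 (SE 0.05, adjusted p = 0.00455) after siSIRT6 and of 0.19 (SE 0.05, adjusted p = 0.0156) after siKDM5C, the second lost without control replicate 3 and with only the 2 groups fitted (adjusted p up to 0.0576). EIF2S1, the eIF2 alpha subunit that these kinases phosphorylate, averaged 15.4 ± 0.443 FPKM in siSIRT6, 14.6 ± 1.52 FPKM in siKDM5C and 18 ± 0.711 FPKM in control libraries (SD, n = 3 for all means here and below). EIF2S1 fell after siSIRT6, -0.22 (adjusted p = 0.0377), and after siKDM5C, -0.29 (adjusted p = 0.0105). The siSIRT6 call of EIF2S1 was lost in 7 alternatives, 5 of them with 1 library left out (adjusted p over the alternatives 0.00479 to 0.115). The direct difference between the knockdowns was -0.01 for EIF2AK3 (95% interval -0.15 to 0.14), 0.06 for EIF2AK4 (-0.06 to 0.17) and 0.08 for EIF2S1 (-0.09 to 0.24), none past the threshold.

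ATF4 itself (ENSG00000128272, chromosome 22, 39519695 to 39522685, plus strand) was among the most abundant transcripts of the list, at 115, 120 and 122 FPKM in siSIRT6 libraries, 170, 132 and 155 FPKM in siKDM5C libraries and 140, 134 and 170 FPKM in controls. The siSIRT6 libraries lay below all controls, while the siKDM5C libraries overlapped them. The fall after siSIRT6 was just past the threshold, -0.30 (SE 0.11, adjusted p = 0.0495), and was lost in 8 alternatives, 6 of them with 1 library left out (range 0.0217 to 0.144). After siKDM5C the log2 fold change of ATF4 was 0.04 (adjusted p = 0.768). DDIT3, which encodes CHOP, the factor linked to cell death under long stress (ENSG00000175197, chromosome 12, 57516588 to 57521737, minus strand), was at 39.9, 39.7 and 35.5 FPKM in siSIRT6 libraries, 45.6, 37.5 and 46.4 FPKM in siKDM5C libraries and 39.9, 36.2 and 43.9 FPKM in controls. The groups overlapped, and DDIT3 did not pass in either comparison, with -0.06 (adjusted p = 0.66) for siSIRT6 and 0.11 (adjusted p = 0.413) for siKDM5C. DDIT3 shares 355 exon bases with MARS1 on the opposite strand and 105 with a gene on the same strand (ENSG00000285133). The latter averaged 140 FPKM in siSIRT6, 157 FPKM in siKDM5C and 145 FPKM in control libraries, so reads may be mixed.

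ATF5 encodes a relative of ATF4 whose translation is controlled in the same way (ENSG00000169136, chromosome 19, 49928702 to 49933935, plus strand). It was at 16.8, 15.6 and 16.8 FPKM in siSIRT6 libraries, 18, 14.7 and 16.9 FPKM in siKDM5C libraries and 25.7, 24 and 28.2 FPKM in controls. Every knockdown library was below every control, at 63.2% of the control mean after siSIRT6 and 63.6% after siKDM5C. The log2 fold changes were -0.63 (SE 0.08, adjusted p = 0.000369) for siSIRT6 and -0.62 (SE 0.08, adjusted p = 0.000385) for siKDM5C, both past the threshold in every alternative run. NUP62, on the opposite strand and sharing 626 exon bases with ATF5, averaged 9.22 FPKM in siSIRT6, 16.6 FPKM in siKDM5C and 17.3 FPKM in control libraries. IL4I1, on the opposite strand with 75 shared bases, averaged 8.22 FPKM in siSIRT6, 9.38 FPKM in siKDM5C and 13.1 FPKM in control libraries. The microRNA gene MIR4751, on the same strand with 74 shared bases, averaged 101 FPKM in siSIRT6, 79.3 FPKM in siKDM5C and 144 FPKM in control libraries. Which strand was counted is not stated, so reads of these genes may be mixed.

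The C/EBP factors, which pair with ATF4 on DNA, did not move together. CEBPB averaged 49.7 ± 1.34 FPKM in siSIRT6, 47.7 ± 3.25 FPKM in siKDM5C and 63 ± 2.41 FPKM in control libraries and fell after siSIRT6, -0.34 (adjusted p = 0.00176), and after siKDM5C, -0.39 (adjusted p = 0.000748). The antisense gene CEBPB-AS1 shares 231 exon bases with CEBPB, so their reads may be mixed. It averaged 11.3 FPKM in siSIRT6, 11.7 FPKM in siKDM5C and 15.2 FPKM in control libraries. CEBPG, a short C/EBP protein that acts as a dimer partner, averaged 26.4 ± 0.33 FPKM in siSIRT6, 36.3 ± 1.58 FPKM in siKDM5C and 30.1 ± 0.812 FPKM in control libraries. It fell after siSIRT6, -0.18 (adjusted p = 0.0126), and rose after siKDM5C, 0.26 (adjusted p = 0.00197), and its groups were fully separated, with siSIRT6 lowest and siKDM5C highest. The siSIRT6 call of CEBPG was lost without control replicate 1 or siSIRT6 replicate 2 (adjusted p up to 0.0528). JDP2, a repressor of the AP-1 family, averaged 4.3 ± 0.0634 FPKM in siSIRT6, 6.02 ± 0.439 FPKM in siKDM5C and 4.91 ± 0.496 FPKM in control libraries. It rose after siKDM5C, 0.25 (adjusted p = 0.0188), and had -0.15 (adjusted p = 0.106) after siSIRT6. The siKDM5C call of JDP2 was lost in 5 alternatives (range 0.00568 to 0.0794). NUPR1, a small chromatin protein induced by stress and first described in pancreatitis, averaged 9.16 ± 0.331 FPKM in siSIRT6, 9.57 ± 1.08 FPKM in siKDM5C and 7.57 ± 0.395 FPKM in control libraries and rose after siSIRT6, 0.25 (adjusted p = 0.0284), and after siKDM5C, 0.30 (adjusted p = 0.0124). The siSIRT6 call of NUPR1 was lost in 7 alternatives (range 0.00476 to 0.0921).

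Among the effectors, CHAC1 and TRIB3 moved in opposite directions. CHAC1, which breaks down glutathione (ENSG00000128965, chromosome 15, 40952962 to 40956519, plus strand), was at 33.4, 31.4 and 34.6 FPKM in siSIRT6 libraries, 39.9, 41 and 44.2 FPKM in siKDM5C libraries and 53.3, 53 and 54.8 FPKM in controls. The 3 groups did not overlap, siSIRT6 being lowest at 61.7% of the control mean and siKDM5C next at 77.6%. CHAC1 fell by 0.68 on the log2 scale after siSIRT6 (SE 0.06, adjusted p = 2.72e-05) and by 0.36 after siKDM5C (SE 0.06, adjusted p = 0.000923). TRIB3, a pseudokinase that feeds back on ATF4 and CHOP (ENSG00000101255, chromosome 20, 362835 to 397559, plus strand), was at 35.8, 33.3 and 36.4 FPKM in siSIRT6 libraries, 32.5, 36.6 and 45.3 FPKM in siKDM5C libraries and 24.9, 23.8 and 21 FPKM in controls. All knockdown libraries were above all controls, with rises of 0.58 (SE 0.12, adjusted p = 0.00327) after siSIRT6 and 0.68 (SE 0.12, adjusted p = 0.00139) after siKDM5C, both past the threshold in every alternative.

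PPP1R15A and DDIT4 separated the knockdowns from each other. PPP1R15A, which encodes GADD34, the subunit that directs a phosphatase to eIF2, averaged 16.6 ± 0.604 FPKM in siSIRT6, 27 ± 1.89 FPKM in siKDM5C and 19.8 ± 1.69 FPKM in control libraries. It fell after siSIRT6, -0.24 (adjusted p = 0.0247), and rose after siKDM5C, 0.43 (adjusted p = 0.00155), and the fall was lost in 4 alternatives (range 0.00642 to 0.0799). DDIT4, which encodes REDD1, an inhibitor of the growth kinase mTORC1, averaged 108 ± 0.777 FPKM in siSIRT6, 165 ± 22.1 FPKM in siKDM5C and 148 ± 11.1 FPKM in control libraries. It fell after siSIRT6, -0.45 (adjusted p = 0.00549), and had 0.15 (adjusted p = 0.227) after siKDM5C, where siKDM5C replicate 2 (140 FPKM) was the lowest of 176, 140 and 180 FPKM. Without that library DDIT4 rose (0.27, adjusted p = 0.0107).

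SESN2, a leucine sensor that restrains mTORC1, was at 4.58, 3.07 and 1.52 FPKM in siSIRT6 libraries, 2.44, 3.29 and 2.01 FPKM in siKDM5C libraries and 4.68, 5.45 and 2.86 FPKM in controls. Replicate 3 was the lowest library of SESN2 in every group, and the groups overlapped. SESN2 did not pass after siSIRT6, -0.44 (adjusted p = 0.25), or after siKDM5C, -0.56 (adjusted p = 0.149), although with the replicate number as a block it passed after siKDM5C (-0.56, adjusted p = 0.0374). XPOT, which exports tRNA from the nucleus (ENSG00000184575, chromosome 12, 64404350 to 64451127, plus strand), was at 43.5, 45.5 and 43.6 FPKM in siSIRT6 libraries, 38.1, 44.8 and 35.1 FPKM in siKDM5C libraries and 61.9, 62.4 and 55.5 FPKM in controls. All 6 knockdown libraries were below the 3 controls, and XPOT fell after siSIRT6, -0.43 (SE 0.09, adjusted p = 0.00382), and after siKDM5C, -0.60 (SE 0.09, adjusted p = 0.000632).

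**Figure D3:**
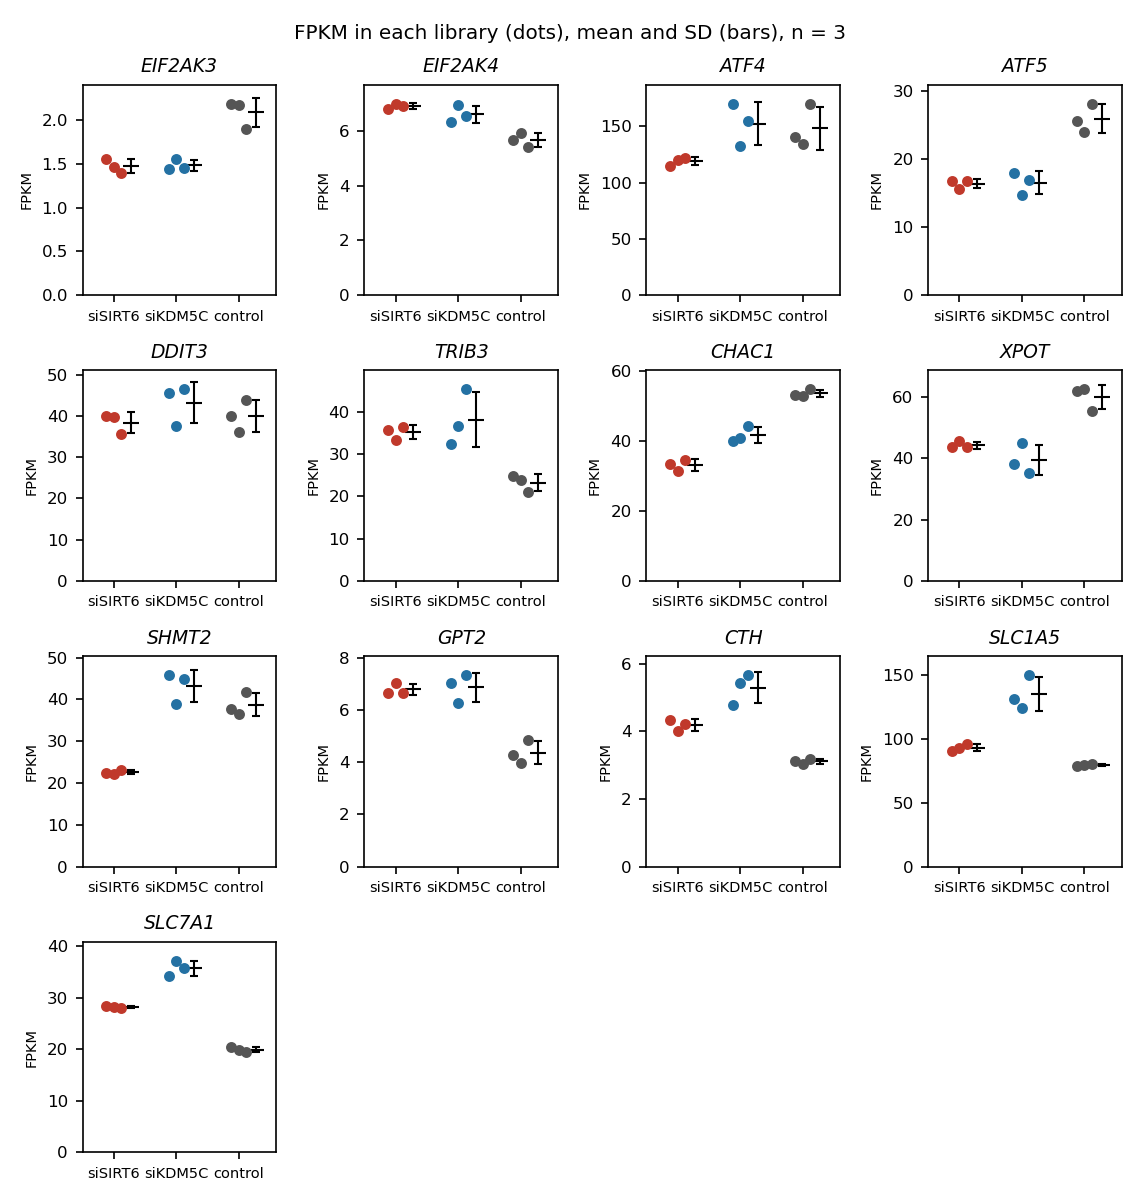
FPKM of 13 genes in each library (dots, 3 per group, left to right replicates 1, 2 and 3) with the mean and SD beside them, siSIRT6 and siKDM5C left of control, y axes from 0. The groups of ATF4 and DDIT3 overlap between siKDM5C and control, and those of CHAC1, CTH, SLC1A5 and SLC7A1 are separated between all 3 groups.

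Of the 4 genes of asparagine and serine synthesis, 0 passed after siSIRT6, where 50.8% of all genes tested were called, and 3 rose and 1 fell after siKDM5C, where 51.5% were called. In the direct comparison ASNS and PHGDH were lower in siSIRT6, PSPH was higher and PSAT1 did not pass, -0.09 (adjusted p = 0.262). After siSIRT6, PSAT1 passed once trends with GC content and gene length were taken out (adjusted p = 0.0139), and PSPH passed with only the 2 groups fitted (adjusted p = 0.049). ASNS, the asparagine synthetase with the element shown above, averaged 39.7 ± 0.648 FPKM in siSIRT6, 53.3 ± 0.984 FPKM in siKDM5C and 39.6 ± 1.12 FPKM in control libraries, and its log2 fold change was 0.00 after siSIRT6 (95% interval -0.10 to 0.10, adjusted p = 0.96) and 0.42 (SE 0.04, adjusted p = 9.23e-05) after siKDM5C. A gene on the same strand without a symbol (ENSG00000284707) shares 1985 exon bases with ASNS, so their reads cannot be told apart by position. The serine pathway starts with PHGDH, which averaged 13.4 ± 0.272 FPKM in siSIRT6, 19.6 ± 1.65 FPKM in siKDM5C and 14.4 ± 0.339 FPKM in control libraries and rose after siKDM5C, 0.42 (SE 0.06, adjusted p = 0.000686), with -0.10 (adjusted p = 0.227) after siSIRT6.

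PSAT1, the transaminase of the serine pathway, averaged 123 ± 1.8 FPKM in siSIRT6, 130 ± 7.3 FPKM in siKDM5C and 116 ± 4.89 FPKM in control libraries and rose after siKDM5C, 0.17 (adjusted p = 0.0336), with 0.08 (adjusted p = 0.242) after siSIRT6. The PSAT1 rise was lost in 10 alternatives (range 0.0012 to 0.0995). PSPH, the phosphatase of its last step, went the other way, averaging 17.4 ± 0.994 FPKM in siSIRT6, 13.8 ± 1.3 FPKM in siKDM5C and 19.8 ± 1.25 FPKM in control libraries. It fell after siKDM5C, -0.49 (SE 0.08, adjusted p = 0.00101), in all 3 libraries, with -0.18 (adjusted p = 0.0873) after siSIRT6. PSPH has a pseudogene copy with deposited values, PSPHP1, so its reads may have been split.

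One-carbon enzymes were divided by knockdown and by gene. SHMT2, the mitochondrial enzyme that turns serine into glycine and a one-carbon unit (ENSG00000182199, chromosome 12, 57229327 to 57234935, plus strand), was at 22.4, 22.2 and 23.1 FPKM in siSIRT6 libraries, 45.8, 38.8 and 44.8 FPKM in siKDM5C libraries and 37.8, 36.6 and 41.8 FPKM in controls. The siSIRT6 libraries lay far below both other groups, at 58.3% of the control mean, a fall of -0.75 (SE 0.07, adjusted p = 7.41e-05), past the threshold in every alternative. An antisense gene (ENSG00000276727) that shares 427 exon bases with SHMT2 averaged 23.2 FPKM in siSIRT6, 38.4 FPKM in siKDM5C and 34.4 FPKM in control libraries, in the same order as SHMT2. With the counted strand not stated, reads of SHMT2 and this gene may be mixed. After siKDM5C the log2 fold change of SHMT2 was 0.15 (adjusted p = 0.126), and without siKDM5C replicate 2 it passed (0.22, adjusted p = 0.0191). Its cytosolic counterpart SHMT1 was scarce, averaging 1.66 ± 0.192 FPKM in siSIRT6, 1.9 ± 0.179 FPKM in siKDM5C and 1.45 ± 0.0411 FPKM in control libraries, with 0.12 (adjusted p = 0.219) after siSIRT6 and a rise of 0.25 (adjusted p = 0.0252) after siKDM5C. The SHMT1 rise was lost in 5 alternatives (range 0.0109 to 0.0706).

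The cytosolic folate enzyme MTHFD1 averaged 6.1 ± 0.293 FPKM in siSIRT6, 8.36 ± 0.24 FPKM in siKDM5C and 6.11 ± 0.238 FPKM in control libraries and rose after siKDM5C, 0.40 (SE 0.05, adjusted p = 0.000329), with 0.00 (adjusted p = 0.976) after siSIRT6. The mitochondrial folate enzyme MTHFD2, which is scarce in most adult tissues and abundant in tumours, averaged 37.1 ± 0.242 FPKM in siSIRT6, 30.2 ± 2.64 FPKM in siKDM5C and 36.6 ± 2.03 FPKM in control libraries and fell after siKDM5C, -0.27 (adjusted p = 0.0101), with 0.02 (adjusted p = 0.833) after siSIRT6. MTHFD1L, the mitochondrial formate-releasing enzyme whose promoter stretch is printed above, passed in neither comparison, with 0.05 (adjusted p = 0.588) after siSIRT6 and 0.07 (adjusted p = 0.446) after siKDM5C. MTHFD1 shares 756 exon bases with an antisense gene (ENSG00000272909) that averaged 7.23 FPKM in siSIRT6, 9.38 FPKM in siKDM5C and 5.97 FPKM in control libraries. Another antisense gene (ENSG00000258824), with 101 shared bases, averaged 15.2 FPKM in siSIRT6, 19.8 FPKM in siKDM5C and 14.3 FPKM in control libraries. MTHFD2 shares 1324 exon bases with SLC4A5 and 295 with ENSG00000264324, both on the opposite strand. SLC4A5 averaged 1.64, 1.1 and 1.32 FPKM in siSIRT6, siKDM5C and control libraries, and ENSG00000264324 46, 43.4 and 38.5 FPKM.

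Of the 5 genes of proline, alanine and cysteine supply, 5 rose after siKDM5C, where 25.6% of all genes tested rose, and 3 rose after siSIRT6, where 23.9% did. GPT2, the mitochondrial alanine transaminase (ENSG00000166123, chromosome 16, 46884378 to 46931297, plus strand), was at 6.66, 7.04 and 6.66 FPKM in siSIRT6 libraries, 7.02, 6.26 and 7.33 FPKM in siKDM5C libraries and 4.27, 3.98 and 4.84 FPKM in controls. Every knockdown library was above every control, with rises of 0.54 (SE 0.08, adjusted p = 0.000471) after siSIRT6 and 0.55 (SE 0.08, adjusted p = 0.000409) after siKDM5C. CTH, which releases cysteine from cystathionine (ENSG00000116761, chromosome 1, 70411218 to 70439851, plus strand), was at 4.34, 4.01 and 4.22 FPKM in siSIRT6 libraries, 4.79, 5.42 and 5.66 FPKM in siKDM5C libraries and 3.12, 3.04 and 3.17 FPKM in controls. Its 3 groups did not overlap, with siKDM5C highest at 170% of the control mean and siSIRT6 at 135%, rises of 0.34 (SE 0.06, adjusted p = 0.00225) after siSIRT6 and 0.61 (SE 0.06, adjusted p = 8.12e-05) after siKDM5C.

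CBS, the enzyme before CTH in transsulfuration, averaged 3.71 ± 0.106 FPKM in siSIRT6, 3.81 ± 0.356 FPKM in siKDM5C and 2.75 ± 0.344 FPKM in control libraries and rose after siSIRT6, 0.33 (adjusted p = 0.0085), and after siKDM5C, 0.36 (adjusted p = 0.0058). A near-identical copy of CBS is annotated on the same chromosome, so the CBS level is uncertain. PYCR1, the last enzyme of proline synthesis, averaged 54.3 ± 0.854 FPKM in siSIRT6, 62 ± 7.77 FPKM in siKDM5C and 46.9 ± 2.18 FPKM in control libraries, rose after siKDM5C, 0.39 (adjusted p = 0.00482), and had 0.21 (adjusted p = 0.067) after siSIRT6, where 7 alternatives passed (range 0.00717 to 0.167). An antisense gene (ENSG00000263585) that shares 450 exon bases with PYCR1 averaged 112 FPKM in siSIRT6, 126 FPKM in siKDM5C and 98.1 FPKM in control libraries. ALDH18A1, the enzyme that opens proline synthesis, averaged 14.8 ± 1.24 FPKM in siSIRT6, 16.9 ± 0.549 FPKM in siKDM5C and 14.7 ± 0.667 FPKM in control libraries, with 0.01 (adjusted p = 0.913) after siSIRT6 and a rise of 0.19 (adjusted p = 0.0386) after siKDM5C. The ALDH18A1 rise was lost in 7 alternatives (range 0.0234 to 0.125).

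Of the 5 transporter genes, SLC7A1, SLC1A5 and SLC7A5 rose in both comparisons. SLC7A1, the carrier of arginine and lysine (ENSG00000139514, chromosome 13, 29509410 to 29595688, minus strand), was at 28.4, 28.2 and 27.9 FPKM in siSIRT6 libraries, 34.2, 37.1 and 35.7 FPKM in siKDM5C libraries and 20.5, 19.9 and 19.4 FPKM in controls. The groups were separated, controls lowest and siKDM5C highest, and the rises were 0.48 (SE 0.05, adjusted p = 6.78e-05) after siSIRT6 and 0.81 (SE 0.05, adjusted p = 3.99e-06) after siKDM5C, the largest rise of the list in that comparison. SLC1A5, the exchanger of glutamine and other neutral amino acids (ENSG00000105281, chromosome 19, 46774883 to 46788594, minus strand), was at 90.4, 93.3 and 95.9 FPKM in siSIRT6 libraries, 131, 124 and 150 FPKM in siKDM5C libraries and 78.8, 79.6 and 80.1 FPKM in controls. It rose by 0.23 after siSIRT6 (SE 0.07, adjusted p = 0.0247), a call lost with 5 of the 9 libraries left out in turn (up to 0.0837), and by 0.75 after siKDM5C (SE 0.07, adjusted p = 4.99e-05). An antisense gene (ENSG00000275719) that shares 780 exon bases with SLC1A5 averaged 72.7 FPKM in siSIRT6, 99.4 FPKM in siKDM5C and 58.4 FPKM in control libraries, in the same order as SLC1A5.

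The carrier of leucine and other large neutral amino acids is a dimer of the SLC7A5 and SLC3A2 proteins. SLC7A5 averaged 174 ± 1.71 FPKM in siSIRT6, 193 ± 14.8 FPKM in siKDM5C and 153 ± 3 FPKM in control libraries and rose after siSIRT6, 0.18 (adjusted p = 0.0336), and after siKDM5C, 0.33 (adjusted p = 0.00216). The siSIRT6 call of SLC7A5 was lost in 9 alternatives (range 0.00416 to 0.108). An antisense gene (ENSG00000260466) that shares 271 exon bases with SLC7A5 averaged 150 FPKM in siSIRT6, 159 FPKM in siKDM5C and 128 FPKM in control libraries. SLC3A2 averaged 54.3 ± 1.47 FPKM in siSIRT6, 70.8 ± 11.1 FPKM in siKDM5C and 67.6 ± 7.43 FPKM in control libraries and passed in neither comparison, with -0.31 (adjusted p = 0.058) after siSIRT6 and 0.06 (adjusted p = 0.701) after siKDM5C. All 3 siSIRT6 libraries lay below the controls, and SLC3A2 passed after siSIRT6 in 7 alternatives, the replicate block among them (range 0.0128 to 0.173). SLC38A2, a sodium-coupled carrier of small neutral amino acids, averaged 119 ± 1.68 FPKM in siSIRT6, 121 ± 18.7 FPKM in siKDM5C and 138 ± 10.8 FPKM in control libraries, with -0.21 (adjusted p = 0.129) after siSIRT6 and -0.20 (adjusted p = 0.145) after siKDM5C. Its siKDM5C libraries were at 117, 141 and 104 FPKM, and without siKDM5C replicate 2 SLC38A2 fell in both comparisons (-0.21, adjusted p = 0.036 for siSIRT6, and -0.32, adjusted p = 0.0114 for siKDM5C). Of the 35 genes, 13 share exon bases with a gene on the opposite strand and 5 with a gene on the same strand that has deposited values, so part of their reads could belong to the neighbour. Not all of these neighbours are named here.

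The direct comparison of siSIRT6 with siKDM5C tested where the knockdowns differed. SHMT2, PPP1R15A, DDIT4, SLC1A5 and PHGDH were lower in siSIRT6 than in siKDM5C cells by the largest amounts, and PSPH and MTHFD2 were higher. Of the 35 genes, 14 were lower in siSIRT6, 2 were higher and 19 did not pass. The 16 calls are 45.7% of the genes, where 39.9% of all genes tested were called. The 14 are 40% of the genes, where 21.3% of all genes tested were lower in siSIRT6, and the 2 are 5.71%, where 18.6% of all genes tested were higher. The median log2 fold change was -0.14, beside -0.024 over all genes tested, and 28 of the 35 had a negative sign. The share of negative signs over all genes tested was not counted. All libraries of one knockdown lay above or below those of the other for 19 of the 35 genes, where this held for 51.7% of all genes tested.

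SHMT2 stood at 52.4% of its siKDM5C level in siSIRT6 cells, -0.90 (SE 0.07, adjusted p = 4.87e-05). PPP1R15A differed by -0.67 (SE 0.07, adjusted p = 0.000223) and DDIT4 by -0.60 (SE 0.10, adjusted p = 0.00175), and SLC1A5 by -0.52 (SE 0.07, adjusted p = 0.000583). In the synthesis genes the differences were -0.51 (adjusted p = 0.000353) for PHGDH, -0.42 (adjusted p = 0.000166) for ASNS, -0.40 (adjusted p = 0.000523) for MTHFD1 and -0.28 (adjusted p = 0.00826) for CTH. The regulators CEBPG and JDP2 differed by -0.45 (adjusted p = 0.000189) and -0.40 (adjusted p = 0.00271), and CHAC1 and SLC7A1 by -0.32 (adjusted p = 0.00251) and -0.33 (adjusted p = 0.000842).

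ATF4, -0.35 (adjusted p = 0.0369), and SLC3A2, -0.36 (adjusted p = 0.0373), were lower in siSIRT6 as well, each lost in 8 alternatives, with adjusted p up to 0.111 for ATF4 and 0.112 for SLC3A2. PSPH was higher in siSIRT6 by 0.31 (adjusted p = 0.0135), lost without siSIRT6 replicate 3 (adjusted p up to 0.0529), which left 1 gene higher, and MTHFD2 by 0.29 (adjusted p = 0.0099). Of the genes called in the same direction in both knockdowns, ATF5 had a difference of -0.01 (95% interval -0.20 to 0.19), GPT2 of -0.01 (-0.19 to 0.16), and TRIB3 of -0.10 (-0.36 to 0.16). None of these 3 passed, and the intervals leave room for small differences.

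**Figure D4:**
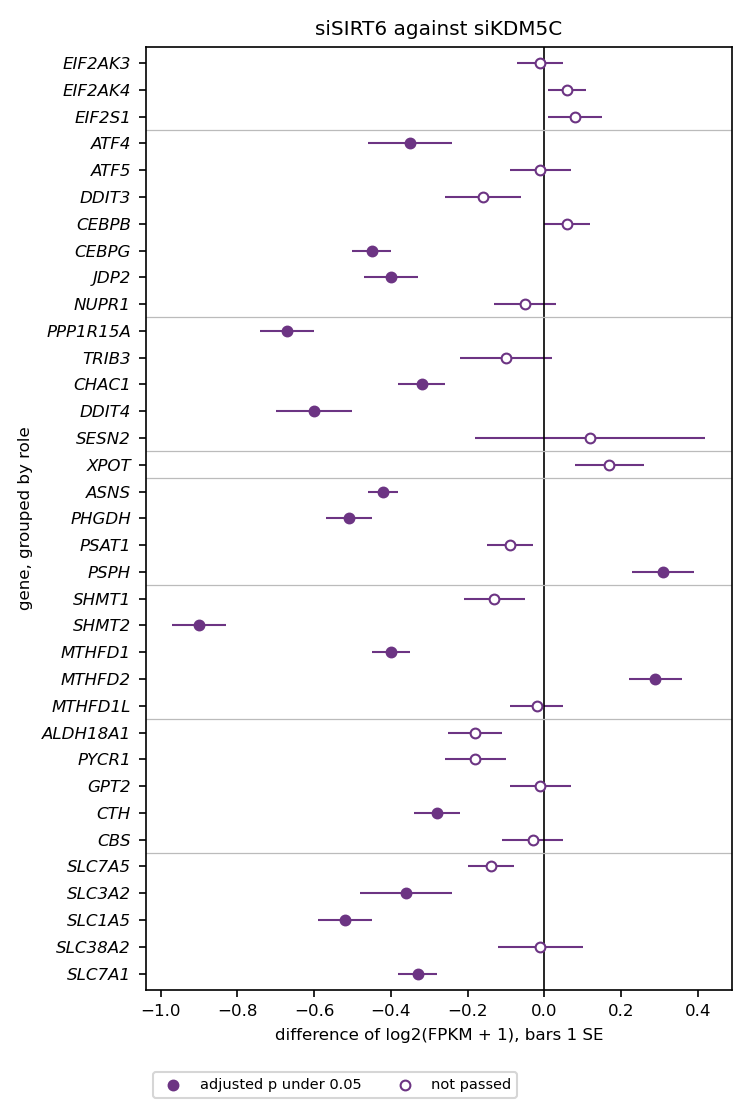
Log2 fold change of FPKM + 1 with 1 SE for each of the 35 genes in siSIRT6 against siKDM5C, filled where the adjusted p was under 0.05. The 14 filled points left of 0 are lower in siSIRT6, SHMT2 furthest at -0.90, and the 2 right of 0 are PSPH and MTHFD2.

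Other genes of the pathway were taken from 6 lists drawn up from their known functions, a few genes standing in more than 1 list. The shares of all genes tested, against which each list is to be read, were 50.8% called after siSIRT6 (23.9% higher, 26.9% lower), 51.5% after siKDM5C (25.6% higher, 25.9% lower) and 39.9% between the knockdowns (18.6% higher in siSIRT6, 21.3% lower). Among the rest of the eIF2 machinery (10 genes, all tested), 4 fell and 0 rose after siSIRT6 and 5 fell and 2 rose after siKDM5C, with median log2 fold changes of -0.12 after siSIRT6 and -0.09 after siKDM5C. The share called was 40% after siSIRT6, below the 50.8% of all genes, and 70% after siKDM5C, where it was 51.5%. PPP1R15B, which encodes the constitutive partner of the eIF2 phosphatase, was at 18.5 ± 0.637 FPKM in siSIRT6 libraries and 18.1 ± 2.16 FPKM in siKDM5C libraries and 35.4 ± 3.74 FPKM in control libraries. It fell in both, -0.90 (adjusted p = 0.000115) and -0.93 (adjusted p = 9.15e-05). EIF2AK1, the haem-regulated kinase, fell after siSIRT6, -0.50 (adjusted p = 9.02e-05), and EIF2AK2, the kinase that binds double-stranded RNA, fell after siKDM5C, -0.64 (adjusted p = 0.005). The guanine exchange factor subunits EIF2B5 and EIF2B4 fell after siSIRT6, -0.40 (adjusted p = 0.000169) and -0.35 (adjusted p = 0.00639), and after siKDM5C, -0.14 (adjusted p = 0.0314) and -0.33 (adjusted p = 0.00855). The subunits EIF2B2 and EIF2B3 rose after siKDM5C, 0.47 (adjusted p = 0.000279) and 0.38 (adjusted p = 0.00492), with -0.05 (adjusted p = 0.512) and -0.05 (adjusted p = 0.612) after siSIRT6.

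Of 15 further genes known as ATF4 targets, 13 were tested, of which 2 rose and 6 fell after siSIRT6 (median -0.25) and 6 rose and 6 fell after siKDM5C (median 0.06). These are 61.5% called after siSIRT6, against 50.8% of all genes, and 92.3% after siKDM5C, against 51.5%. With at least 5 FPKM required, 9 were tested and 4 were called after siSIRT6. The death receptor gene TNFRSF10B was at 21.5 ± 0.307 FPKM in siSIRT6 libraries and 29.5 ± 1.32 FPKM in siKDM5C libraries and 39.5 ± 2.2 FPKM in control libraries. It fell in both, -0.85 (adjusted p = 7.84e-06) and -0.41 (adjusted p = 0.000442). GDF15, a secreted stress cytokine, was at 120 ± 2.82 FPKM in siSIRT6 libraries and 166 ± 26.3 FPKM in siKDM5C libraries and 242 ± 19.3 FPKM in control libraries. It fell in both, -1.0 (adjusted p = 0.00015) and -0.55 (adjusted p = 0.00381). HERPUD1, of the endoplasmic reticulum degradation machinery, fell in both, -0.56 (adjusted p = 6.52e-05) and -0.40 (adjusted p = 0.00043). The pro-apoptotic BBC3 fell after siSIRT6, -0.73 (adjusted p = 0.00036), and after siKDM5C, -0.34 (adjusted p = 0.0178). ALDH1L2, a mitochondrial folate enzyme with a control level of 0.821 ± 0.0816 FPKM, rose after siSIRT6, 0.50 (adjusted p = 0.000825), and after siKDM5C, 0.81 (adjusted p = 5.59e-05). It averaged 1.58 ± 0.0177 FPKM in siSIRT6 and 2.21 ± 0.271 FPKM in siKDM5C libraries. ALDH1L2 thus passed the filter of 1 FPKM through the knockdown libraries, which favours a rise, and it is also counted among the enzymes below. VEGFA rose after siKDM5C, 0.29 (adjusted p = 0.00145), with 0.08 (adjusted p = 0.22) after siSIRT6. Between the knockdowns, 9 of the 13 were lower in siSIRT6 (69.2%, against 21.3% of all genes) and 1 was higher. The higher one was the cystine transporter gene SLC7A11, 0.79 (adjusted p = 0.00556), at 17.4 ± 0.404 FPKM in siSIRT6 libraries and 9.88 ± 2.66 FPKM in siKDM5C libraries, and among the lower ones was ATF3, -0.42 (adjusted p = 0.000662).

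Of 20 cytosolic tRNA synthetase genes, many of them known to be induced by ATF4, 5 rose and 5 fell after siSIRT6 and 7 rose and 4 fell after siKDM5C. The shares called, 50% and 55%, were near those of all genes, 50.8% and 51.5%. KARS1, for lysine, was at 26.7 ± 0.945 FPKM in siSIRT6 libraries and 28.8 ± 1 FPKM in siKDM5C libraries and 17 ± 0.466 FPKM in control libraries. It rose after siSIRT6, 0.62 (adjusted p = 2.13e-05), and after siKDM5C, 0.72 (adjusted p = 9.91e-06). HARS1, for histidine, rose by 0.51 (adjusted p = 9.33e-05) after siSIRT6 and 0.58 (adjusted p = 4.82e-05) after siKDM5C. YARS1, for tyrosine, and WARS1, for tryptophan, fell after siSIRT6, -0.32 (adjusted p = 0.000324) and -0.26 (adjusted p = 0.00119), and after siKDM5C, -0.49 (adjusted p = 2.93e-05) and -0.44 (adjusted p = 6e-05). Between the knockdowns 6 were lower and 5 higher in siSIRT6, VARS1 and AARS1 among the lower, -0.44 (adjusted p = 0.00103) and -0.38 (adjusted p = 0.00281), and RARS1 and EPRS1 among the higher, 0.46 (adjusted p = 0.00132) and 0.33 (adjusted p = 0.00285).

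Of 20 listed transporter genes outside the 35 genes, 11 were tested, and 2 rose and 4 fell after siSIRT6 while 0 rose and 5 fell after siKDM5C. The share called was 54.5% after siSIRT6, against 50.8% of all genes, and 45.5% after siKDM5C, all of it lower, against 51.5% called and 25.9% lower among all genes. The taurine transporter gene SLC6A6 was at 17.2 ± 0.269 FPKM in siSIRT6 libraries and 9.87 ± 0.408 FPKM in siKDM5C libraries and 22 ± 0.266 FPKM in control libraries. It fell in both, -0.34 (adjusted p = 0.000388) and -1.08 (adjusted p = 8.05e-07). SLC36A1, a lysosomal amino acid exporter, fell in both, -0.69 (adjusted p = 2.92e-05) and -1.02 (adjusted p = 3.53e-06). So did SLC1A4, a carrier of serine and alanine, -0.28 (adjusted p = 0.00731) and -1.11 (adjusted p = 4.16e-06). SLC7A11 fell after siKDM5C, -0.81 (adjusted p = 0.00345), with -0.02 (adjusted p = 0.918) after siSIRT6. SLC43A1, a leucine carrier, fell after siSIRT6, -0.65 (adjusted p = 0.000253), while SLC38A7 rose, 0.42 (adjusted p = 0.00137). SLC43A1 averaged 0.757 ± 0.0412 FPKM in siSIRT6, 1.41 ± 0.152 FPKM in siKDM5C and 1.76 ± 0.213 FPKM in control libraries. It passed the filter of 1 FPKM through the siKDM5C and control libraries, which favours a fall after siSIRT6. Between the knockdowns 6 of the 11 were higher in siSIRT6 (54.5%, against 18.6% of all genes) and 1 was lower.

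Further enzymes of amino acid and one-carbon metabolism (28 listed, 20 tested) gave 4 rises and 9 falls after siSIRT6 and 5 rises and 4 falls after siKDM5C, or 65% called against 50.8% of all genes and 45% called against 51.5%. The 13 calls after siSIRT6 became 8 without control replicate 1, 7 without control replicate 2 and 7 without siSIRT6 replicate 3. The thymidylate synthase gene TYMS fell after siSIRT6, -0.61 (adjusted p = 2.15e-05). AHCY, which hydrolyses S-adenosylhomocysteine, rose after siSIRT6, 0.18 (adjusted p = 0.0381), and after siKDM5C, 0.63 (adjusted p = 6.16e-05). The urea cycle gene ASS1 fell after siSIRT6, -0.32 (adjusted p = 0.00556), and after siKDM5C, -0.69 (adjusted p = 8.78e-05). The ornithine aminotransferase gene OAT fell after siKDM5C, -0.51 (adjusted p = 0.000224), with -0.03 (adjusted p = 0.67) after siSIRT6. Of 21 genes of amino acid sensing by mTORC1 and GCN2, 19 were tested, with 4 rises and 5 falls after siSIRT6 and 3 rises and 4 falls after siKDM5C, 7 calls that became 11 without siKDM5C replicate 2. The shares called of this list were 47.4% after siSIRT6 and 36.8% after siKDM5C, both below those of all genes, 50.8% and 51.5%. RPS6KB1, the S6 kinase, fell after siSIRT6, -0.58 (adjusted p = 0.000118), and LAMTOR1, of the lysosomal scaffold, rose, 0.54 (adjusted p = 0.000223). MTOR rose after siSIRT6, 0.20 (adjusted p = 0.00496), and after siKDM5C, 0.39 (adjusted p = 0.000132). GCN1, the activator of GCN2, fell after siKDM5C, -0.47 (adjusted p = 0.000267), and had -0.16 after siSIRT6, just past the threshold (adjusted p = 0.05 after rounding). The arginine sensor gene CASTOR1 was at 7.64 ± 0.26 FPKM in siSIRT6 libraries and 13.3 ± 1.34 FPKM in siKDM5C libraries, a difference of -0.72 (adjusted p = 0.000146).

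**Figure D5:**
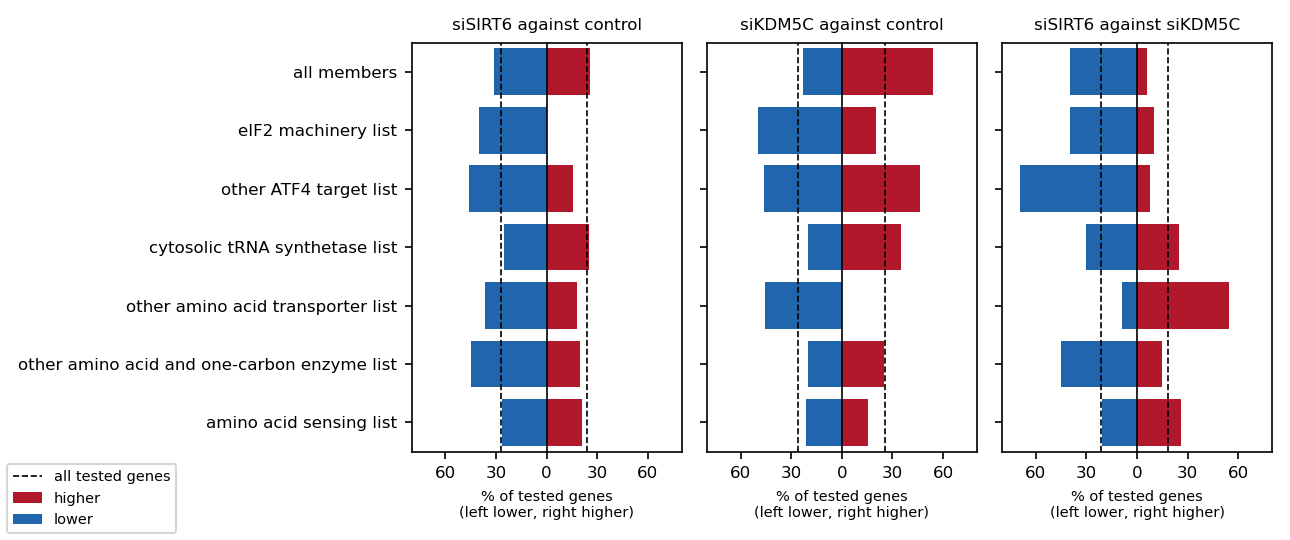
Percent of the tested genes that were higher (right) or lower (left) at an adjusted p under 0.05, for the 35 genes (all members) and 6 lists of other pathway genes, in a panel per comparison, with dashed lines at the percent over all genes tested. In the siKDM5C panel the 35 genes reach 54.3% higher, beyond the dashed line at 25.6%, while 0 of the other transporters rose.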

How the data were processed

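The authors deposited 1 FPKM value per gene and library. Per the submitters' processing notes, Trimmomatic, HISAT2, Cufflinks, HTSeq and the hg38 build were used, without versions or roles, and neither the annotation nor the counted strand is stated. Of 36753 identifiers, 36659 had a symbol in the gene name table and 35564 had coordinates in GENCODE release 29. The depth of each library was estimated from the steps of FPKM times the exon length in GENCODE release 29. With these lengths 44.7% of the tested genes gave whole reads in every library (tolerance 0.01 of a read). For the other tested genes the shortest length that gave whole reads was taken, so their reads rest on a fitted length. Genes reaching 1 FPKM in 3 or more libraries entered 1 two-sided limma fit (version 3.58.1, R 4.3.3, trend) of all 9 libraries with 1 term per group. Values were log2(FPKM + 1), and these fold changes understate those of low genes. The fit was tested on simulated data, whose outcome is not reported here. The 35 genes, the lists and the tests were chosen with earlier results of these data known. Values in every library are given for ATF4, DDIT3, EIF2AK3, EIF2AK4 and each gene with an absolute log2 fold change of at least 0.5 past the threshold in a knockdown comparison; SESN2 was added after its values were seen. From each list, genes are named out of the 4 with the smallest adjusted p in a comparison. Alternatives were another pseudocount (0.1), filters, scaling, fits and single libraries left out.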

Additional observations from a re-analysis of the deposited data

How the results depend on the processing

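No fold change of the 35 genes or of the targets changed direction past the threshold in the alternatives run. Without siSIRT6 replicate 2, 7 of the 35 genes fell after siSIRT6, and over all libraries left out in turn the falls numbered 7 to 13. The genes higher in siSIRT6 than in siKDM5C numbered 1 to 3, the enzyme genes called after siSIRT6 7 to 13, and the sensing genes called after siKDM5C 5 to 11. With at least 5 FPKM required, 4 further ATF4 targets were called after siSIRT6. Fewer genes or libraries entered those fits, and some counts rose in them while others dropped. The cause was not tested. Of the calls of the 35 genes, 13 of 20 after siSIRT6 were made in every alternative that tested the gene. So were 22 of 27 after siKDM5C and 13 of 16 between the knockdowns. The filter at 5 FPKM left 30 of the 35 genes to test, and EIF2AK3, CTH and CBS were among those not tested there. Removing the GC and length trend, chosen after seeing the data, left the 35 genes with 9 rises and 14 falls after siSIRT6. Deviations from the group means of libraries with the same replicate number correlated at -0.229 to 0.252 (9 pairs), not above 0.1 in every pair, and the labels tie the numbers to no shared culture or day, so the libraries were treated as unpaired. From the data alone, 5 of 9 libraries correlated best with a library of their own number, but pairs with different numbers ran from -0.353 to 0.426 (18 pairs). Pairing is therefore left undecided. With the replicate block, 8 of the 35 genes rose and 12 fell after siSIRT6, 19 rose and 9 fell after siKDM5C, and 2 were higher and 14 lower between the knockdowns. The smallest difference called among the 35 genes was 0.17 on the log2 scale, with 3 libraries a group.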
